A study of Mus musculus with 12 samples.

Results

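Imprinted genes are genes that are transcribed mainly from the allele of one parent. This account describes 40 of them in mouse embryonic stem cells, as 40 of 49943 annotated genes on chromosomes 1 to 19, X and Y. They were chosen by name from well-known imprinted loci of the mouse. No measured value was a criterion, but earlier results of these data were known. Peaks were assigned to a gene when they overlapped its GRCm38 span extended by 5 kb on each side. Peaks that overlapped between libraries were merged into regions, and 168 of 97889 merged regions fell in these windows.

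Chromatin accessibility was measured by ATAC-seq, in which a transposase inserts adapters into open DNA, and the deposited data are 12 peak lists, 1 per library. All libraries come from BL6xCAST embryonic stem cells, a hybrid of 2 mouse strains, that carry a construct on the X chromosome and grew on gelatin in a medium that was mostly 2i with LIF. The synHPRT1R group carried that construct, a synthetic sequence known as the human HPRT1 locus written in reverse, and the synHPRT1 group carried the HPRT1 locus in its native order. Each genotype had 2 clones with 3 libraries each, 6 libraries in all, and a line without a construct was not analysed here. The labels do not say whether the replicates were separate cultures, so p-values here measure the spread between libraries, which may be technical.

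At an imprinted locus, DNA methylation laid down in the egg or the sperm marks a control region, and this mark decides which parental allele of the neighbouring genes is active. Clusters usually hold genes of both parental kinds and a long noncoding RNA that is transcribed from one allele. Embryonic stem cells keep most of these marks, but culture in 2i is known to lower DNA methylation. The lists do not separate BL6 and CAST alleles, so the parental origin of an open region cannot be told apart, and an allele named below is background and not a measurement.

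Most of these genes lay in open chromatin in both genotypes. A peak was listed in the window in all 12 libraries for 32 of the 40 (80.0%), in some libraries for 8, and for 0 of them in no library. Among 34614 protein-coding and lncRNA genes, 51.8% had one in all 12 libraries and 24.8% in none, and among all annotated genes 40.3% had one in all 12. The imprinted genes had longer windows, with a median of 38.7 kb against 22.8 kb for those genes, and a longer window holds more peaks, so the part of length in this difference was not tested. By type, 29 of 33 protein-coding members had a peak in all 12 libraries, against 63.3% of protein-coding genes, and 3 of 7 lncRNA members did, against 32.0% of lncRNA genes. By the allele known to be expressed, 22 of 25 paternally and 8 of 13 maternally expressed members had one, as did both Gnas and H13, whose transcripts come from different alleles. These counts do not ask whose peak it is. Airn counts through the promoter of Igf2r and Nnat through a region over the promoter of Blcap, while H13 and Mcts2 share their strongest peak.

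The 8 members that lacked a peak in some library belong to 4 loci. They were H19 with 8 libraries, Phlda2 with 11, Mest with 10, Dlk1 with 10, Meg3 with 8, Rian and Mirg with 5 each, and Rtl1 with 3. Of these, 5 lie in the Dlk1/Meg3 locus of chromosome 12. None of the 8 passed Fisher's exact test between the genotypes (0 with an adjusted p under 0.05 and 0 with an unadjusted one), against 0.0% and 0.261% of the 11504 genes tested. The smallest unadjusted p that 6 against 6 libraries allow is 0.00216.

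The height of a peak is given here by its rank within its own list. The fold is the enrichment that the peak caller gave each peak, as the authors deposited it, and the in-list percentile is the share of peaks of the same list with a lower fold. A gene's value is that of its strongest peak in the window, and 0 where none was listed. Over the 40 imprinted genes the median of these percentiles was 67.6%, against 48.7% over all protein-coding and lncRNA genes and 64.6% over protein-coding genes. The members ran from 0.0% at Rtl1, Rian and Mirg to 97.6% at Snrpn.

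**Figure D1:**
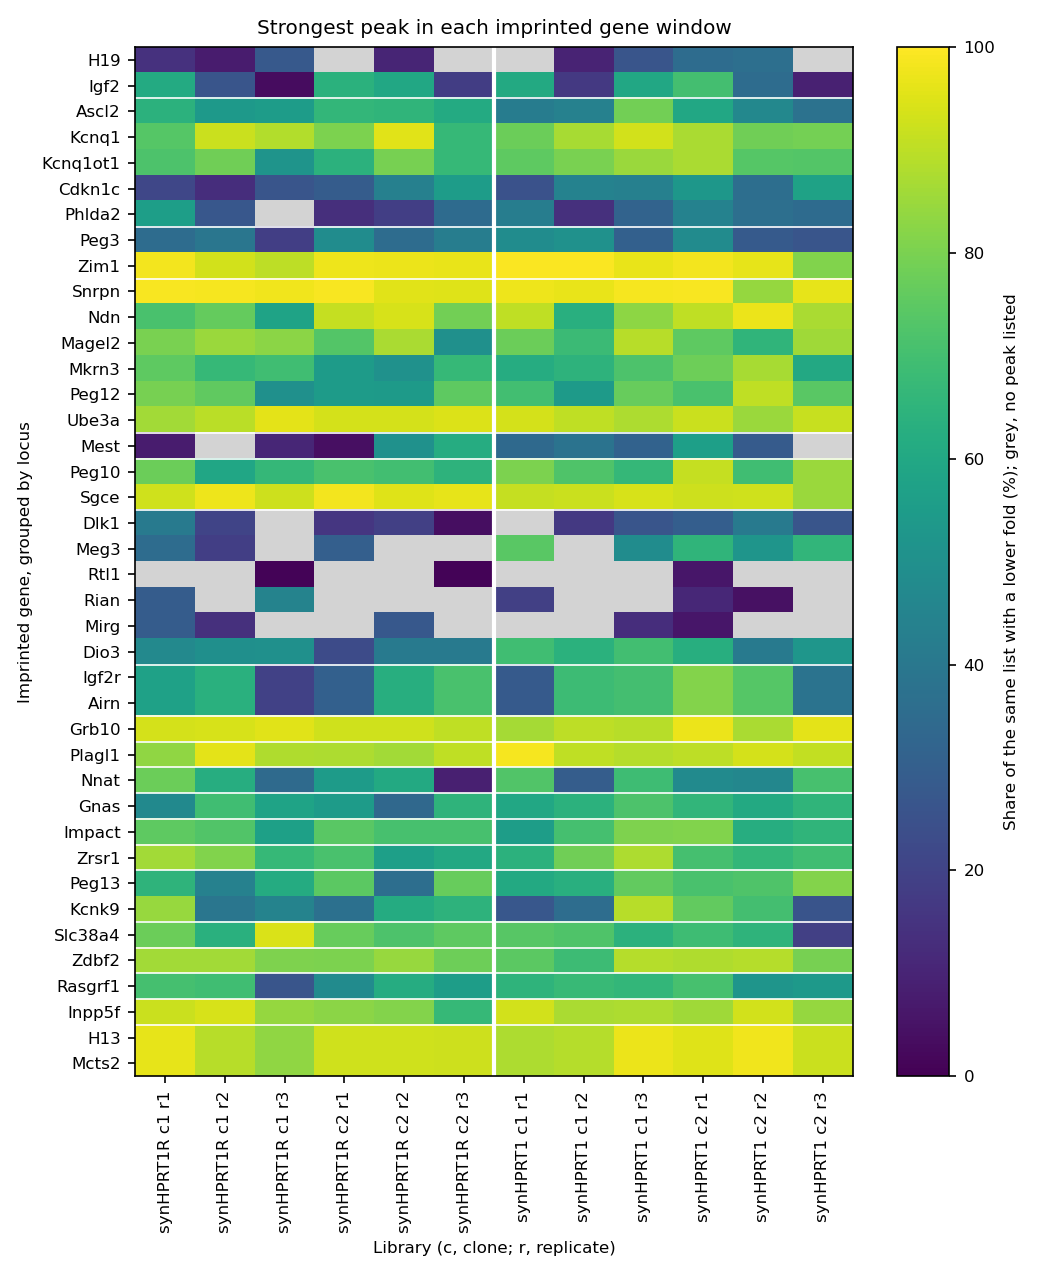
In-list percentile (colour, in %) of the strongest peak in each of 40 imprinted gene windows (rows) in each of 12 libraries (columns), with synHPRT1R on the left and synHPRT1 on the right, and grey where no peak was listed. Zim1, Snrpn, Sgce, Ube3a, Grb10, Plagl1, H13 and Mcts2 are at 81.1 or above in every library, while Rtl1 is listed in 3 libraries and Rian and Mirg in 5 each.

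The 168 regions ranged from short and rare to broad and constant. Those present in all 12 libraries numbered 50 (29.8%), against 23.8% of all merged regions, and 29 (17.3%) appeared in 1 library, against 27.1%. The 50 constant regions had a median width of 1140 bp and a median in-list percentile of 70.1%. The 29 rare ones had 257 bp and 7.14%. Of the constant regions 21 (42.0%) lay within 1 kb of an end of a member, and of the rare ones 1 (3.45%) did. Of the 50, 48 lay inside a member's span. Width and constancy share a source, since a merged region is the union of the peaks of all libraries that list it.

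For 31 members RefSeq promoter windows were at hand, 47 in all, each of 300 bases around a transcription start on GRCm38.p6. A region present in all 12 libraries overlapped 20 of them (42.6%), against 35.2% of 32851 such windows in the table, and 15 of the 47 were overlapped in no library. The sequences below are given because they show the extremes of this contrast. They are the 4 constantly open promoter windows with the highest in-list percentiles, at Zim1 (chr7:6696383-6696682, minus strand), Mcts2 (chr2:152686898-152687197, plus strand), Ube3a (chr7:59228500-59228799, plus strand) and Plagl1 (chr10:13090582-13090881, plus strand). With them stand the most CpG-rich windows among members never overlapped at their promoter, Nnat (chr2:157559828-157560127, plus strand) and Meg3 (chr12:109540746-109541045, plus strand). Each runs 5′ to 3′ along the gene's strand, and capitals mark the hexamer TGCCGC or its reverse complement GCGGCA, the core that the zinc finger protein ZFP57 recognises when methylated.
Zim1: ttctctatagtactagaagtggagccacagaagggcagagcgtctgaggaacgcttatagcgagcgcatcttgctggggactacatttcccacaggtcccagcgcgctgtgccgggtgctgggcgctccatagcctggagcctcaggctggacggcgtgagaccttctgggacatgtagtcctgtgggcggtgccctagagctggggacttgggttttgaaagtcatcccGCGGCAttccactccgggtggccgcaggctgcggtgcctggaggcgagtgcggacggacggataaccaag
Mcts2: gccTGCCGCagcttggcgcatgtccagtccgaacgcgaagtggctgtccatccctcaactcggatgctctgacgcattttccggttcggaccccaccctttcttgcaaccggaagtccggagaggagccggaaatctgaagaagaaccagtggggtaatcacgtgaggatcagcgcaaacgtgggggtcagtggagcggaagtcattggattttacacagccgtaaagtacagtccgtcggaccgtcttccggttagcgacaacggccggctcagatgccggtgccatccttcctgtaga
Ube3a: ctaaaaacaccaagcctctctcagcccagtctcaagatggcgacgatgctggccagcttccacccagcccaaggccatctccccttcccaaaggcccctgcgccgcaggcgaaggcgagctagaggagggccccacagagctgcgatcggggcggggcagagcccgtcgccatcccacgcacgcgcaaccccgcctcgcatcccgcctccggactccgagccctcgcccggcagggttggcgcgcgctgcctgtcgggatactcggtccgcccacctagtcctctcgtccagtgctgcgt
Plagl1: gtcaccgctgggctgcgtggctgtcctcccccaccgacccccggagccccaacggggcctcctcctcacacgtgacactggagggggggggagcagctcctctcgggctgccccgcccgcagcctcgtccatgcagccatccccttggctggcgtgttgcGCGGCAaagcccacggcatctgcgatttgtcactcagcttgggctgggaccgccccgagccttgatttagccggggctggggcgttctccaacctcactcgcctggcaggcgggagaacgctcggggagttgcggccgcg
Nnat: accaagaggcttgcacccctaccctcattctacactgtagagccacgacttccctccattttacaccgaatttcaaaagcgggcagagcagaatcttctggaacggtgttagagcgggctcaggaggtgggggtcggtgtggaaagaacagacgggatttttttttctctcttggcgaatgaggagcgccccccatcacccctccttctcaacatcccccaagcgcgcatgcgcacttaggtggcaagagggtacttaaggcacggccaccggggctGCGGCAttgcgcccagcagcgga
Meg3: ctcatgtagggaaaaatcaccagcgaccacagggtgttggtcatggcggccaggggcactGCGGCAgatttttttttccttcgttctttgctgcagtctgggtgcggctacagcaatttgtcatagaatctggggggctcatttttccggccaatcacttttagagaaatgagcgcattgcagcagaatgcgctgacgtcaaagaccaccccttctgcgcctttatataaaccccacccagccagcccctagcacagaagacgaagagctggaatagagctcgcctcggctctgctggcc
Of the 6 windows, that of Ube3a holds no match of the hexamer and the others hold 1 each.

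The open promoter windows were richer in CpG. The ratio of observed to expected CpG had a median of 0.715 over the 20 open windows, 0.628 over the 12 that were open in some libraries and 0.306 over the 15 closed ones. Over all windows of the table the medians were 0.791 where a region was present in all 12 libraries and 0.192 where none was, so the members follow the order seen in the whole table. Nnat with a ratio of 0.69 and Meg3 with 0.602 lacked a region, while Kcnq1ot1 with 0.422 had one in all 12 libraries. An Igf2 window at 0.791 also had none, and it lies at chr7:142661222-142661521. The hexamer, searched as TGCCGC on both strands, was in 11 of the 47 member windows (23.4%), in 11.6% of all 32851 windows and in 21.4% of the windows open in all 12 libraries. Among the members it was in 5 of the 20 open windows and in 3 of the 15 closed ones. Some windows of a gene overlap, and each was counted. The Mest windows that start at 30737800 and 30737803 hold the same matches, and the Gnas windows that start at 174327499 and 174327518 also overlap. A match is only a match of letters and does not show binding.

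**Figure D2:**
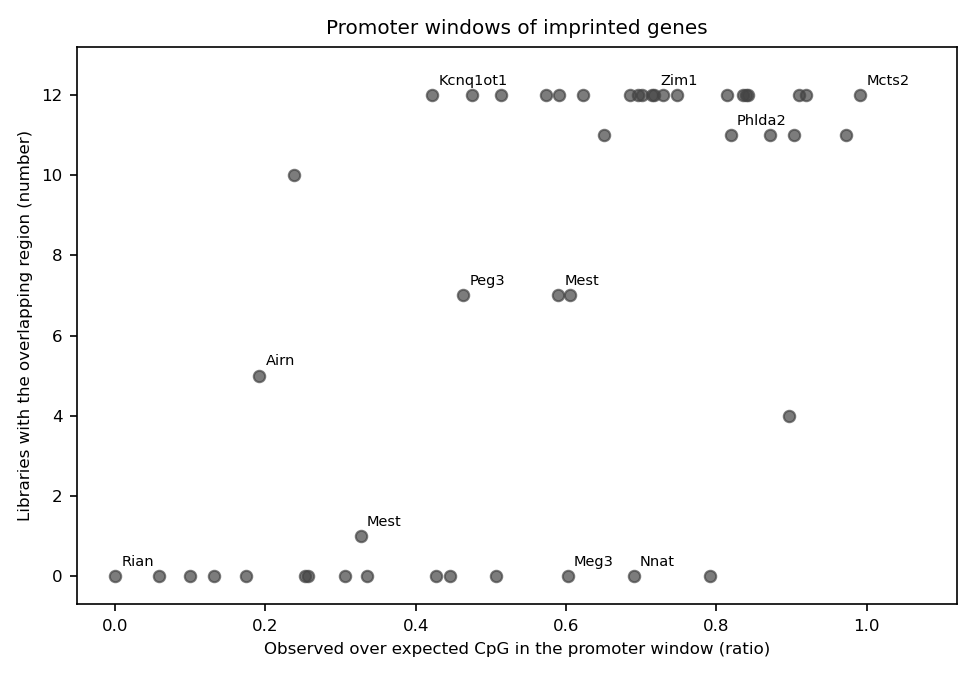
Number of libraries in which a region overlaps each of 47 promoter windows of imprinted genes (vertical axis) against the observed over expected CpG ratio of the window (horizontal axis), 1 point per window. Windows open in 12 libraries start at a ratio of 0.422 (Kcnq1ot1), and the labelled closed windows include Rian at 0.0, Meg3 at 0.602 and Nnat at 0.69.

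At the H19 and Igf2 locus of chromosome 7, accessible chromatin was weak and changed from list to list. H19, a long noncoding RNA expressed from the maternal allele, had no region in its span of 142575530 to 142578146. Both of its regions lay beyond the gene on the side of Igf2, 2129 and 3113 bp from its end, at 142580275 to 142580754 in 4 libraries and at 142581259 to 142581849 in 5. The in-list percentile of H19 had a lowest value of 0.0, a median of 9.11 and a highest of 28.1 in synHPRT1R libraries, against 0.0, 18 and 36.5 in synHPRT1 libraries. The ranges overlapped, and 2 libraries of each genotype listed no peak. The control region of this locus is known to lie between H19 and Igf2, and whether these regions belong to it was not tested.

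Igf2, which encodes insulin-like growth factor 2 and is expressed from the paternal allele, had a region in all 12 libraries inside the gene at 142660064 to 142661074. Its median fold was 4.91, from 3.27 to 5.94. The in-list percentile of Igf2 ran over a lowest of 3.28, a median of 43.3 and a highest of 64.0 in synHPRT1R libraries, against 9.08, 47.5 and 70.3 in synHPRT1 libraries. A peak was thus always listed, but near the bottom of some lists in both genotypes. Of 4 Igf2 promoter windows 1 was overlapped, in 1 synHPRT1R and 3 synHPRT1 libraries, by the region 142658870 to 142659585. Within the same lists Igf2 exceeded H19 by 26.4 ± 26.8 percentage points (mean and SD, n = 12 libraries), in 10 of 12 libraries, with an adjusted p of 0.011 in an exact two-sided sign-flip permutation test. In 4 of the 12 libraries H19 was unlisted and counted as 0.

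In the neighbouring Kcnq1 locus the start of the long noncoding RNA was open in every library. Of the genes it is known to silence, Cdkn1c, Phlda2 and Ascl2 ranked below it and Kcnq1 above it by median in-list percentile. For Ascl2 this depended on the measure. Ranked by −log10 p-value in place of the fold, Ascl2 minus Kcnq1ot1 was -5.88 and was not called (exact permutation test, adjusted p = 0.206). Kcnq1ot1, which is transcribed from the paternal allele inside Kcnq1 and against it, had a region over its promoter window at 143296020 to 143297128, with a median fold of 6.97. Its in-list percentile was 51.9 at the lowest, 69.4 at the median and 79.3 at the highest in synHPRT1R libraries, against 73.2, 77.5 and 87.2 in synHPRT1 libraries. The genotypes overlapped between 73.2 and 79.3.

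Cdkn1c, which encodes the cell cycle inhibitor p57 and is maternally expressed, was listed in all 12 libraries through different regions. One at 143460631 to 143461243 over the gene's end was in 5 synHPRT1R and 6 synHPRT1 libraries, and another at 143459064 to 143460054 in 4 and 6. Its in-list percentile had a lowest of 12.9, a median of 27.8 and a highest of 55.4 in synHPRT1R libraries, against 25.1, 43.9 and 57.8 in synHPRT1 libraries. Phlda2, whose product limits placental growth, had a promoter region at 143501812 to 143503019 in 5 synHPRT1R and 6 synHPRT1 libraries. Where listed, this region had median percentiles of 18.7 in synHPRT1R and 25.2 in synHPRT1 libraries. Another region, 143505658 to 143506944, lay in the flank and was in 11 libraries. Over the whole Phlda2 window the percentiles were 0.0, 22.9 and 55.9 in synHPRT1R libraries, against 13.7, 35.7 and 44.2 in synHPRT1 libraries. Both genes sat in the lower part of most lists, and the genotypes overlapped at each.

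Ascl2, a transcription factor of the trophoblast, had 2 regions in all 12 libraries, 1 of them over its promoter window at 142968878 to 142969661. Its median in-list percentile was 57.6. Kcnq1, a potassium channel subunit, reached a median of 83.5 over its window. Its main region lay inside the gene at 143123956 to 143125027, 17079 bp from its end, with a median of 82.8, and in 2 libraries the strongest peak of the Kcnq1 window was the one at the start of Kcnq1ot1. The region at its own lower end, 143106772 to 143107940, was weaker, with a median percentile of 28.6 in the 10 libraries that listed it. Across the 12 lists, Kcnq1ot1 exceeded Cdkn1c by 36.5 ± 15.0 and Phlda2 by 44.4 ± 14.0 percentage points (mean and SD), each in 12 of 12 libraries, with an adjusted p of 0.000919 in the exact sign-flip permutation test. Clone means of these differences ran from 27.4 to 47.2 for Cdkn1c and from 39.5 to 50.6 for Phlda2, over 4 clones. When peaks were restricted to 1 kb around gene ends, Kcnq1 no longer exceeded Cdkn1c or Ascl2, with differences of -8.38 for Kcnq1 minus Cdkn1c and 29.7 for Ascl2 minus Kcnq1, against 45.8 for Kcnq1 minus Cdkn1c and 27.0 for Kcnq1 minus Ascl2 over the whole windows.

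**Figure D3:**
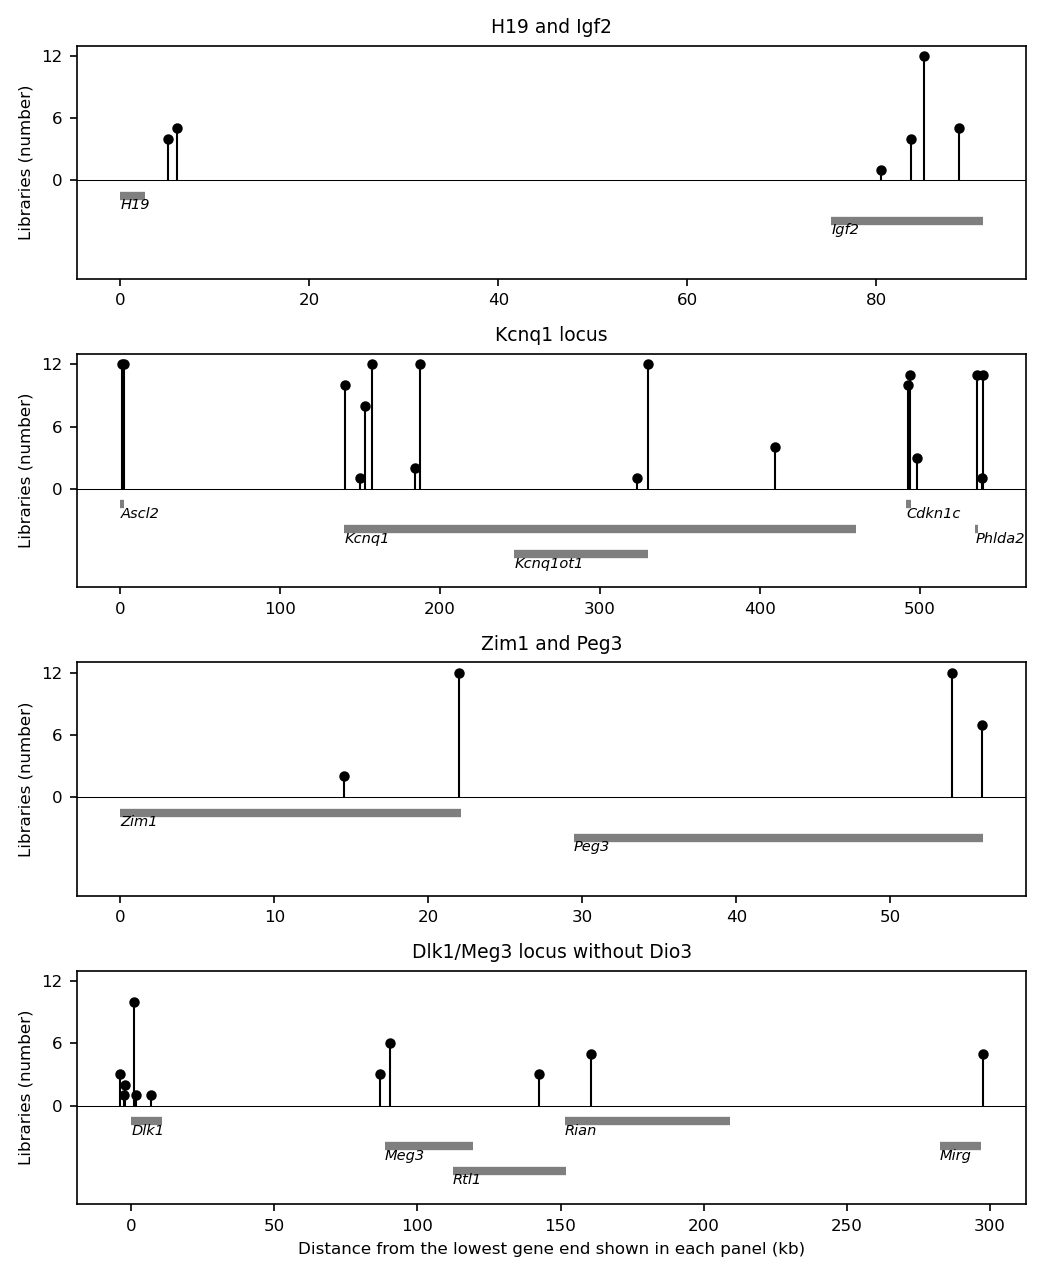
Merged regions (black stems) at 4 imprinted loci, with the number of libraries that list them (vertical axis) against distance from the lowest gene end in the panel (horizontal axis, kb), and gene spans as grey bars. Regions in 12 libraries include those at the right end of Kcnq1ot1, at the right end of Zim1 and inside Igf2, while the panel of Dlk1, Meg3, Rtl1, Rian and Mirg has none.

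The Dlk1/Meg3 locus of chromosome 12 had peaks that came and went between lists, apart from Dio3 at its far end. Of its 14 regions 1 was present in all 12 libraries, the promoter region of Dio3 at 110278610 to 110279406. Dio3 encodes the type 3 deiodinase, which inactivates thyroid hormone, and its in-list percentile was 22.8 at the lowest, 44.2 at the median and 50.3 at the highest in synHPRT1R libraries, against 40.7, 63.3 and 69.9 in synHPRT1 libraries. The highest synHPRT1R values lay within the synHPRT1 range. Dlk1, a transmembrane ligand related to Notch ligands and paternally expressed, was listed in 5 synHPRT1R and 5 synHPRT1 libraries. Its main region, 109452897 to 109454158, starts just past the promoter window, which ends at 109452872, so that the window counts as closed by a narrow margin.

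Meg3, the maternally expressed long noncoding RNA of the locus, had no region over either of its 2 promoter windows. A region inside the gene at 109542768 to 109543181 was present in 1 synHPRT1R and 5 synHPRT1 libraries, for which Fisher's exact test gave a p of 0.0801, adjusted 1.0. Where listed, its in-list percentile ran from 35.5 to 74.6. Over the gene window the percentiles were 0.0 at the lowest, 9.19 at the median and 35.5 at the highest in synHPRT1R libraries, against 0.0, 58.7 and 74.6 in synHPRT1 libraries. The ranges overlapped, since 3 synHPRT1R libraries and 1 synHPRT1 library listed no peak.

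Rtl1, a gene derived from a retrotransposon, had 1 region, 109594754 to 109595151, in 2 synHPRT1R libraries and 1 synHPRT1 library and never above a percentile of 6.01. Rian, a host of small nucleolar RNAs, had 1 at 109612998 to 109613477 in 2 synHPRT1R and 3 synHPRT1 libraries. Mirg, a host of microRNAs, had 1 at 109749772 to 109750255, beyond the gene, in 3 synHPRT1R and 2 synHPRT1 libraries. When peaks had to reach 5 on the −log10 q-value scale, Rtl1 and Mirg were listed in 0 libraries, Rian in 1 and Dlk1 in 2. Dio3 was the higher one in every library in which Rtl1, Rian or Mirg was listed. In the other libraries the difference between Dio3 and these genes is the value of Dio3 itself, so their tests carry little and are not given here.

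The Peg3 locus, also on chromosome 7, showed a sharp contrast in the rank of the fold between neighbouring zinc finger genes. Zim1, known to be expressed from the maternal allele, had the highest promoter by median in-list percentile of all members with a window. It lay at 6696050 to 6696871, with a median fold of 10.5, from 7.72 to 13.6. Its in-list percentile was 90.2 at the lowest, 96.9 at the median and 98.2 at the highest in synHPRT1R libraries, against 81.1, 97.3 and 99.6 in synHPRT1 libraries. Every library thus placed it among the stronger peaks of its list. Peg3, which is paternally expressed, had a promoter region at 6730253 to 6730605 in 3 synHPRT1R and 4 synHPRT1 libraries, at a median in-list percentile of 0.144 where listed. The broad region next to it, 6727233 to 6729720, was 2488 bp wide and present in all 12 libraries at a median of 37.4. Its median fold was 4.53 and its median −log10 q-value 21.6, beside 32.0 for the Zim1 promoter and 38.0 for that of Ube3a. The windows of Zim1 and Peg3 overlap and got no test. By in-list percentile the Zim1 promoter outranked the broad Peg3 region in 12 of 12 libraries, by 57.6 ± 8.02 percentage points (mean and SD). This contrast was chosen after the values were seen. By −log10 q-value the Zim1 promoter was higher in each library except synHPRT1 clone 2 replicate 3, with 13.6 against 14.4. The margin was small in some others, as in synHPRT1R clone 1 replicate 2 with 27.5 against 25.2.

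The Snrpn and Ube3a domain, whose human counterpart is affected in Prader-Willi and Angelman syndromes, was open in all 12 libraries at each of its 6 members. Snrpn, which encodes a splicing protein and is paternally expressed, spans 467683 bp in the annotation and held 13 regions, 4 of them in all 12 libraries. Its highest region, 60350680 to 60351526, lay 98651 bp from the nearer gene end and had a median fold of 10.8. The region over the 1 of its 4 promoter windows that was open, 60002923 to 60005223, had a median in-list percentile of 37.7, against 97.6 for the internal region, which was higher in 12 of 12 libraries. Ube3a, a ubiquitin ligase expressed from the maternal allele in neurons, had a single region, over its promoter at 59228072 to 59229857. Its percentiles were 86.3, 93.4 and 95.9 in synHPRT1R libraries, against 85.1, 91.0 and 93.4 in synHPRT1 libraries (lowest, median and highest).

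Snrpn exceeded Ube3a by 5.32 ± 4.19 percentage points over the whole windows (mean and SD, n = 12), in 11 of 12 libraries, with an adjusted p of 0.0024 in the exact sign-flip permutation test. This order depended on the measure. By −log10 p-value in place of the fold, Ube3a minus Snrpn was 5.17 (exact permutation test, adjusted p = 0.00159). Within 1 kb of a gene end Snrpn had no region and counted as 0. The difference of 91.1 there is the value of Ube3a itself, so its test carries little and is not given here.

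Ndn, Magel2, Mkrn3 and Peg12, paternally expressed genes in the same domain, each had a promoter region in all 12 libraries. Ndn, the gene of necdin, had a median in-list percentile of 85.1, at 62348047 to 62349367. Magel2, a gene of the same MAGE family, had 78.6, at 62376510 to 62377602. Mkrn3, a makorin RING finger gene, had 66.9 at 62418666 to 62420703, and Peg12 had 72.8 at 62462152 to 62464748. Of the 6 pairs among them, Ndn over Mkrn3 with 14.4 ± 16.4 and Ndn over Peg12 with 12.8 ± 14.0 percentage points (mean and SD, n = 12) passed, with adjusted p of 0.0175 and 0.00645 in the exact sign-flip permutation test, and the other 4 did not in the lists as deposited. Ranked by −log10 p-value, 2 of the other 4 passed as well, Magel2 minus Mkrn3 with 16.6 and Mkrn3 minus Peg12 with -18.5 (exact permutation tests, adjusted p = 0.00967 and 0.00159). Mkrn3 minus Peg12 also passed with a flank of 10 kb, at -7.31, and Magel2 minus Mkrn3 without synHPRT1 clone 2 replicate 2, at 12.1 (exact permutation tests, adjusted p = 0.0315 and 0.0266). In the lists as deposited, Ndn over Mkrn3 held in 9 of 12 libraries and 3 of 4 clones, with clone means from -1.89 to 30.5. Ndn over Peg12 held in 11 of 12 libraries, with clone means from 0.188 to 26.6. The difference between Ndn and Peg12 lost its call with a flank of 10 kb, at 7.08, and turned to -2.78 when peaks were ranked by −log10 p-value (exact permutation tests, adjusted p = 0.0993 and 0.485).

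At several loci the promoter of one gene lies inside another, and there the open region of the 2 could be told apart by place. Mcts2, a retrogene expressed from the paternal allele, sits in an intron of H13, which encodes signal peptide peptidase. The Mcts2 promoter region, 152686434 to 152687460 on chromosome 2, had a median in-list percentile of 92.6 and the H13 promoter region, 152669278 to 152670385, one of 61.9. In a contrast also chosen with the values known, the Mcts2 region was higher in 12 of 12 libraries, by 30.0 ± 12.7 percentage points (mean and SD). Both were present in all 12 libraries.

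At the Igf2r locus of chromosome 17 the order was the opposite, with the host gene's promoter open and that of the noncoding RNA weaker. Igf2r, a receptor that clears IGF2 and is maternally expressed, had a promoter region at 12769091 to 12770148 in all 12 libraries. Its percentiles were 19.2, 59.9 and 71.2 in synHPRT1R libraries, against 28.2, 69.4 and 81.5 in synHPRT1 libraries (lowest, median and highest). The promoter of Airn, the antisense noncoding RNA that silences Igf2r on the paternal allele, had a region at 12741108 to 12741705 in 1 synHPRT1R and 4 synHPRT1 libraries (Fisher's exact test, unadjusted p = 0.242, adjusted p = 1.0). The strongest peak of the Airn window was the Igf2r promoter in 12 of 12 libraries, so the value of Airn is that of Igf2r.

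Sgce, the gene of epsilon-sarcoglycan, and Peg10, a gene derived from a retrotransposon, start next to each other on chromosome 6 and are both paternally expressed. The regions beside these starts were present in some libraries only. That at 4746780 to 4747171, 33 bp inside Sgce, was in 3 synHPRT1R and 5 synHPRT1 libraries. That at 4747459 to 4748739, 153 bp inside Peg10, was in 6 and 5. No region was listed between the starts. Regions farther inside the genes were constant in part. The highest of Sgce, 4684506 to 4686178, had a median in-list percentile of 92.7, and that of Peg10, 4749062 to 4749514, one of 70.4. Mest, a paternally expressed gene of the alpha/beta hydrolase fold on the same chromosome, had no region in all 12 libraries. Its promoter region 30737914 to 30738410 was present in 3 synHPRT1R and 4 synHPRT1 libraries, at median percentiles of 50.6 and 36.1 where listed. A weaker region inside the gene, 30736897 to 30737597, was in 2 synHPRT1R and 3 synHPRT1 libraries. Over the whole Mest window the percentile was 0.0, 9.09 and 61.9 in synHPRT1R libraries, against 0.0, 32.7 and 56.3 in synHPRT1 libraries (lowest, median and highest).

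Among members that stand alone, some had their highest region inside the gene and others at a promoter. Grb10, an adaptor that inhibits insulin receptor signalling, held 14 regions, 5 of them constant, and its highest, 11948366 to 11949465 on chromosome 11, had a median percentile of 89.7. At its upstream promoter window 2 regions lay side by side, 12036526 to 12037380 in 11 libraries at 21.9 where listed and 12037568 to 12038629 in 10 libraries at 37.8. Plagl1, a zinc finger transcription factor on chromosome 10, had its highest region over its promoter, 13090273 to 13091633, at 89.2, with another inside the gene at 84.9, 13107635 to 13109286. Zdbf2, on chromosome 1, had 14 regions, 3 of them in all 12 libraries. The highest, 63247026 to 63248593, lay inside the gene at a median percentile of 79.8. Those over its upstream promoter, 63199920 to 63200769, and its downstream promoter, 63272328 to 63274355, had 76.5 and 56.9. The region 63219245 to 63219721 inside Zdbf2 was in 2 synHPRT1R and 6 synHPRT1 libraries, the lowest unadjusted p of any member region at 0.0606 (Fisher's exact test, adjusted p = 1.0).

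Gnas, the gene of the stimulatory G protein alpha subunit, had 11 regions on chromosome 2. Its promoter windows were open in 11 or 12 libraries, at median percentiles of 23.5 to 35.6, and an internal region at 174294510 to 174296278 reached 60.5. Nnat, the neuronatin gene, had no region over its own promoter or in its span. The region that gave it a peak in all 12 libraries, 157566030 to 157567063, lay 3505 bp beyond the gene, over the promoter window of Blcap, the gene within which Nnat lies. With no flank Nnat had a peak in 0 libraries. Zrsr1, which encodes an RNA-binding protein related to U2AF1, had a promoter region at 22971577 to 22973126 with a median of 70.0. This region gave the value of the gene in every library. A second region partly in its flank, at 22981415 to 22982621, had 89.2. Both regions also overlapped promoter windows of Commd1.

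The remaining members each had a region in all 12 libraries. Inpp5f, an inositol phosphatase gene, had one over its promoter at 128610837 to 128611969 on chromosome 7, at a median percentile of 86.5, and Rasgrf1, a Ras exchange factor gene, at 89909540 to 89910441 on chromosome 9, at 63.5. Impact, a translational regulator gene on chromosome 18, had its constant region at 12972912 to 12974593, 18222 bp inside the gene, at 70.8. Slc38a4, an amino acid transporter gene on chromosome 15, had its own at 97049218 to 97050723 and a percentile of 37.5, 5233 bp from an end, and a higher one at 97028148 to 97028742, at 72.3 in the 6 synHPRT1R and 3 synHPRT1 libraries that listed it. Peg13, a noncoding RNA gene, had a region over its end at 72809135 to 72810944, also on chromosome 15, at 68.2, and its neighbour Kcnk9, a potassium channel gene, one 544 bp from its end, 72546178 to 72548070, at 38.1. Over all 40 members, the region listed in most libraries overlapped a promoter window or lay within 1 kb of a gene end in 22, lay deeper inside the gene in 15 and lay in the flank in 3.

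Comparisons between neighbours were made for the 41 pairs of members within 1 Mb whose windows do not overlap. Of these, 29 passed the exact sign-flip permutation test after adjustment over all pairs of annotated genes, against 77.5% of 1184487 such pairs, and in 13 the same gene was higher in all 12 libraries, against 53.1%. Neighbouring genes thus differ in rank as a rule, and the share among imprinted pairs, below that of all pairs, is no result about imprinting. A gene with no listed peak counts as 0 in this test, which fixes the sign against a gene listed in that library. The smallest p of this test over 12 libraries is 0.000488, and over the 4 clone means, the independent units, it is 0.125, so clone means alone cannot pass. The pairs of H19 with Phlda2, Igf2 with Ascl2 and Meg3 with Dio3, Mirg and Rian each lost their call when 1 of several libraries was left out. Their adjusted p in the same permutation test then reached 0.0779 without synHPRT1R clone 1 replicate 1 for H19 and Phlda2, and 0.0595 without synHPRT1R clone 2 replicate 3 for Igf2 and Ascl2. For Meg3 it reached 0.0966 with Dio3 without synHPRT1 clone 1 replicate 2, 0.051 with Mirg without synHPRT1R clone 2 replicate 1 and 0.0705 with Rian without synHPRT1 clone 1 replicate 3.

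**Figure D4:**
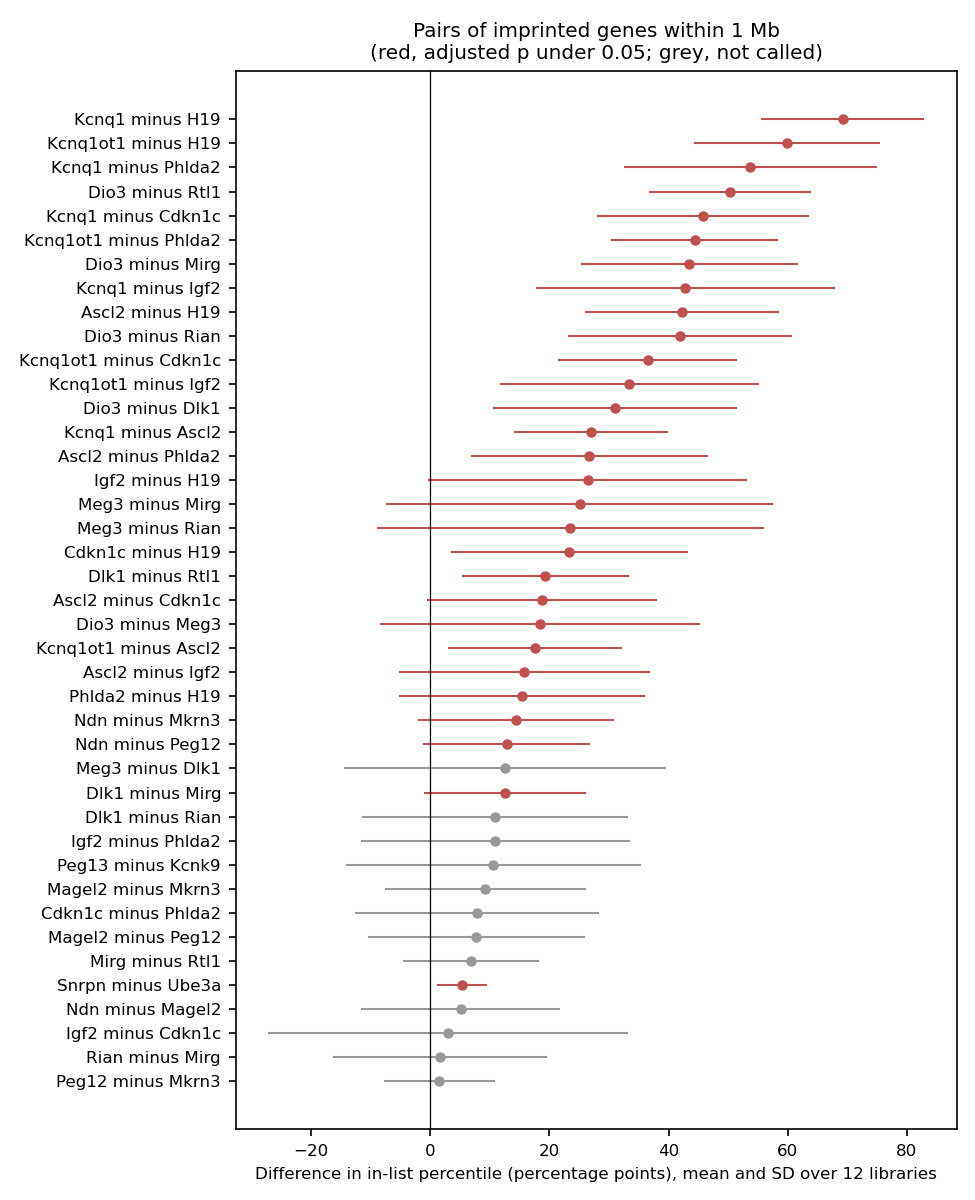
Difference in in-list percentile between 41 pairs of imprinted genes within 1 Mb (horizontal axis, percentage points, as mean and SD over 12 libraries), the gene with the higher mean first in each label, red where the adjusted p was under 0.05 and grey elsewhere. Kcnq1 minus H19 is at the top with 69.2, and Peg12 minus Mkrn3 at the bottom with 1.54.

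Between the genotypes, no region of an imprinted gene passed the test. Of the 118 member regions present in 1 to 11 libraries, 0 had an adjusted p under 0.05 and 0 an unadjusted p under 0.05 by Fisher's exact test, against 0.0% and 0.22% of 74604 regions tested. A call after adjustment would have needed 3230 regions fully separated by genotype, so this count of 0 does not show that the genotypes are alike. A synHPRT1R library listed 92.5 ± 11 member regions and a synHPRT1 library 103.7 ± 17.8 (mean and SD, n = 6 each). The ranges were 78 to 111 and 80 to 126. The lists themselves held 41737 to 58099 peaks in synHPRT1R and 38403 to 63704 in synHPRT1, and per 10000 listed peaks the numbers were 19.27 ± 0.717 and 20.17 ± 0.977. In lists cut to equal length the difference in member regions, synHPRT1R minus synHPRT1, was -5.0, against -11.2 in the deposited lists.

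**Figure D5:**
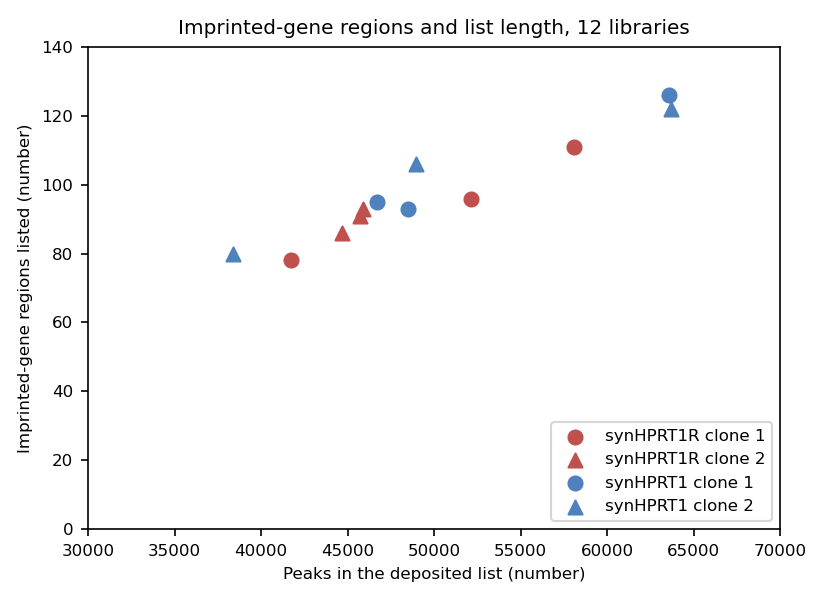
Number of imprinted-gene regions listed (vertical axis) against the number of peaks in the deposited list (horizontal axis) for 12 libraries, red for synHPRT1R and blue for synHPRT1, circles for clone 1 and triangles for clone 2. Longer lists tended to hold more of these regions, from 78 in a list of 41737 peaks to 126 in one of 63563.

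Clones of a genotype were separated at few member regions, a comparison added after the values were seen. In synHPRT1R, 2 of 80 member regions (2.5%) were listed by the 3 libraries of clone 2 without exception and by 0 of clone 1, against 0.299% of all regions. They were the Mest promoter region and the Snrpn region 60415352 to 60415887. The opposite separation held for 0, against 1.17%. In synHPRT1, 1 of 102 (0.98%) was present in clone 1 alone, against 0.529%, the Igf2 promoter region, and 0 in clone 2 alone, against 0.313%. With 3 libraries against 3 an exact test cannot go below a p of 0.1.

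Lists of related genes were set beside the members. As above, 51.8% of protein-coding and lncRNA genes and 63.3% of protein-coding genes had a peak in all 12 libraries. Of 32 other imprinted genes in the annotation, 27 had a peak in the window in all 12 libraries, 4 in some and 1 in none. Ppp1r9a with a median in-list percentile of 100 and Atp10a with 98.2 were the highest, and Slc22a2 with 0 libraries and Zim3 with 8 the lowest. Of 12 genes known to maintain imprints, 10 had a peak in all 12 libraries, among them Zfp57, Trim28 and Dppa3, while Ctcfl was listed in 7 and Setdb1 in 8. In either list 0 genes had an adjusted or an unadjusted p under 0.05 between the genotypes by Fisher's exact test. Over the 11504 genes tested the shares were 0.0% and 0.261%.

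The labelled cell type was checked by markers in the same windows. All 8 embryonic stem cell markers, among them Pou5f1, Nanog and Esrrb, had a peak in all 12 libraries, against 63.3% of protein-coding genes. So did 2 of 6 fibroblast or feeder, 2 of 4 trophoblast and 4 of 4 endoderm markers, and 1 of 4 genes taken as silent in stem cells, Ptprc, while Alb, Ins2 and Cd3e were listed in 0 libraries. An open window does not show expression, so these lists bear on the makeup of the cultures only weakly.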

How the data were processed

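Each of 12 ATAC-seq libraries came as a narrowPeak list of its own, called per library. The submitters' processing notes name MACS2 2.1.0, Bowtie2 2.2.9, deepTools 3.5.0, SAMtools 1.9 and bcl2fastq 2.20 with GRCm38 (mm10). How these tools were run is not stated there, nor is any filter on reads. For each peak the deposited lists hold a score, a fold (a ratio of enrichment), a −log10 p-value, a −log10 q-value and a summit offset, all the authors' own. The lists hold no reads, so the depth is unknown and list length stands beside the results. A peak that is not listed was not detected, which does not show closed chromatin. No per-sample column was left unmapped (0).

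Peaks of the 12 lists that overlapped by at least 1 bp were merged. Presence was compared by two-sided Fisher's exact test over 6 synHPRT1R and 6 synHPRT1 libraries, and neighbouring genes by two-sided exact sign-flip permutation of within-list percentile differences, both with Benjamini-Hochberg adjustment over all regions, genes or pairs of the annotation (threshold 0.05). Python 3.11.15, NumPy 2.4.6, pandas 2.3.3, SciPy 1.17.1 and Matplotlib 3.10.9 were used, and the code was tested on simulated data. Members, gene lists and tests were chosen with earlier results of these data known. Every member is named with the region listed in most libraries, with ties decided by median percentile. Other imprinted genes are given by counts with the 2 highest and 2 lowest genes. Of the imprint maintenance genes the 2 lowest are named. The other genes named there and among the markers are examples, not chosen by rank. Further regions and contrasts that are described were chosen after their values were seen.

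Alternatives were a −log10 q-value minimum of 5, lists cut to the length of the shortest by −log10 p-value (38403 peaks), 50% coverage of a region, windows with no flank, with 10 kb or within 1 kb of a gene end, ranking by −log10 p-value, a replicate block, and each library left out. Of the other lists named, 33 imprinted genes gave 32 in the annotation.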

Additional observations from a re-analysis of the deposited data

Results flagged for a closer look

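Single libraries stood below the rest of their genotype at 6 of 66 groups of 6 libraries examined, and chance alone gives about 1 such group in 20. The values are in-list percentiles of the strongest peak in the gene window. In synHPRT1R, Dio3 was at 22.8 in clone 2 replicate 1, with the next library at 41.0, and Impact was at 56.9 in clone 1 replicate 3, with the next at 70.8. In synHPRT1 clone 2 replicate 3, which has the shortest list, Zim1 was at 81.1, with the next library at 96.4, Sgce at 84.8, with the next at 91.4, and Slc38a4 at 18.9, with the next at 64.1. In synHPRT1 clone 2 replicate 2, Snrpn was at 84.0, with the next at 96.1.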

How the results depend on the processing

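The number of members with a peak in all 12 libraries was 32, and 23 to 33 over the alternatives, lowest with a −log10 q-value minimum of 5. The 0 calls between genotypes stayed at 0 for regions and genes in all alternatives run, with 0 to 2 member regions at an unadjusted p under 0.05 by Fisher's exact test. The difference in member regions per library, synHPRT1R minus synHPRT1, ran from -16.5 to -5.0, beside -11.2. Pairs of neighbours called numbered 25 to 29, beside 29.

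The order within pairs turned round in these cases. Ranked by −log10 p-value, Ube3a minus Snrpn was 5.17 and Ndn minus Peg12 was -2.78. Within 1 kb of a gene end, Ube3a minus Snrpn was 91.1, Igf2 minus Cdkn1c -34.9, Igf2 minus Phlda2 -22.3, Ascl2 minus Kcnq1 29.7, Kcnq1 minus Cdkn1c -8.38, Dlk1 minus Meg3 17.2 and Meg3 minus Mirg -7.47. That window leaves out peaks deeper inside a gene, and Snrpn, Igf2 and Meg3 had no region left in it. They count as 0 there, so each difference with any of them is the value of the other gene, with a sign fixed in advance. In the main setting the pairs of Igf2 with Cdkn1c, Igf2 with Phlda2 and Dlk1 with Meg3 were not called. For the ranking the cause was not tested. Members with rare, weak peaks depended most on the threshold: with that −log10 q-value minimum of 5, H19 was listed in 2 libraries, Mest in 6 and Igf2 in 8.

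With replicate number as a block, 0 regions and 0 genes were called, as without it. The numbers did not pair the libraries: over 18 same-number pairs the correlations of their deviations from the group means ran from -0.0871 to 0.0764, and 3 of 12 libraries correlated best with their own number. The smallest p that the block allows is 0.00926. The rank of a peak is that of its list, and a longer window has more chances of a high one.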
